A study of Caenorhabditis elegans with 12 samples.

Results

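The 9 genes of the eggshell and the egg surface of Caenorhabditis elegans described here are cpg-1, cpg-2, egg-1, egg-2, egg-3, perm-2, perm-4, cbd-1 and chs-1, out of 17118 genes with a probe set annotated to that gene alone. They were chosen by name. Where a gene had several probe sets, the one with the highest mean level was used. All 9 genes had such a probe set and all 9 passed the filter on low values. Whole-body RNA of N2, the wild-type laboratory strain, was measured on 12 Affymetrix arrays, 1 per sample, with 3 biological replicates in each of 4 groups: hermaphrodites fed ad libitum, fasted hermaphrodites, males fed ad libitum and fasted males. All worms were grown at 20 °C, and males were parted from hermaphrodites by filtration as young adults. From then on all of them, fed worms included, were on 200 µg/ml of 5-fluoro-2'-deoxyuridine (FUdR), which keeps progeny from hatching. Fasting began on day 2 of adulthood and lasted 48 hours, and the age given for all samples is day 4 of adulthood. Values are log2 of the deposited MAS5 signal, and a difference of 1 is a 2-fold difference. The comparisons ask how levels differ between the sexes, what fasting does in each sex, and whether the fasting response differs between the sexes.

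The eggshell is a layered coat around the embryo whose outermost layer is present before fertilization and whose inner layers are added after sperm entry. The outermost, vitelline layer holds CBD-1, PERM-2 and PERM-4, the middle layer is chitin made by the chitin synthase CHS-1, and the inner layer holds the chondroitin proteoglycans CPG-1 and CPG-2, which bind chitin. EGG-1 and EGG-2 are membrane proteins of the oocyte surface with LDL receptor repeats and are needed for sperm entry. EGG-3, a phosphatase-like protein without catalytic activity, sits at the oocyte cortex and is needed there for the placement of CHS-1. Transcripts of oocyte proteins are made in the oocyte-producing germ line and stored in oocytes. Whether this holds for each of the genes named here, perm-2 and perm-4 among them, was not tested.

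Of the 16 probe sets of these genes, 9 were used: 192390_at for cpg-1 (C07G2.1), 194163_s_at for cpg-2 (B0280.5), 188898_at for egg-1 (B0244.8), 181312_at for egg-2 (R01H2.3), 191564_s_at for egg-3 (F44F4.2), 186232_s_at for perm-2 (C44B12.1), 171741_x_at for perm-4 (C44B12.5), 180976_s_at for cbd-1 (H02I12.1) and 192070_at for chs-1 (T25G3.2). The _s_at ending marks probes shared by several transcripts, and _x_at marks probe sets in which some probes may hybridize to other sequences, so the levels of cpg-2, egg-3, perm-2, perm-4 and cbd-1 may include such signal. In the RefSeq gene order of assembly WBcel235, perm-4 and perm-2 are neighbouring protein-coding genes. The hermaphrodite levels of cpg-1, cpg-2, perm-2 and perm-4 were at least 14.15 and lay close to the highest value on any array, 15.60. Whether differences are compressed there was not tested.

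All 9 genes were higher in hermaphrodites than in males, fed and fasted, and no male array reached the lowest hermaphrodite array for any of them. In fed worms the differences ran from 2.23 for perm-4 to 6.37 for egg-1, with a median of 5.06, against a median of -0.13 over all probe sets tested. All 9 were called by limma at an adjusted p under 0.05, where 35.9% of the 15913 probe sets tested were called higher in fed hermaphrodites. Groups without overlap in that direction were seen for 37.2% of probe sets. In fasted worms all 9 were again called (32.7% of probe sets; 34.5% without overlap), with differences from 3.26 for perm-4 to 5.59 for egg-1. Median centring made each of these 9 fasted differences 1.54 times larger on the linear scale. In whole worms, fewer cells of a type and less RNA per cell cannot be told apart.

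Among the genes of the oocyte surface, egg-1 stood at 13.01, 13.06 and 12.93 in the 3 samples of fed hermaphrodites and at 6.60, 6.45 and 6.84 in fed males. The fed hermaphrodites were all high and the fed males all low, 82.8-fold apart (6.37 ± 0.13 SE, adjusted p = 2.30e-12). Since the male level lay near the filter value, the fold depends on the handling of low signal, and it was 50.4 with the 40th percentile of the signal added to every value. Its partner egg-2 stood at 12.82 ± 0.15 (SD, n = 3) in fed hermaphrodites and 8.04 ± 0.29 in fed males, a difference of 4.79 ± 0.14 (SE). The cortical scaffold gene egg-3 stood at 11.87 ± 0.11 and 6.88 ± 0.57 (SD), where fed male replicate 2 was the lowest at 6.24, and the same addition took its difference from 4.99 to 4.37. The chitin synthase gene chs-1 gave 11.25, 11.21 and 11.03 in fed hermaphrodites and 5.14, 5.54 and 4.53 in fed males, 68.4-fold apart (adjusted p = 1.77e-09). All 3 fed male values of chs-1 lay under the filter value of 6.01, so its difference depends on the handling of low signal and was 4.57 with the 40th percentile of the signal added to every value.

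By the SE of the fit, the probe sets used for the proteoglycan genes were the most even within groups, at 0.10 for cpg-1 and 0.11 for cpg-2. The other cpg-1 probe set, 171776_x_at, had an SE of 0.19. Fed hermaphrodites gave 14.34, 14.38 and 14.35 for cpg-1 and fed males 8.85, 8.87 and 8.80, a 45.8-fold difference (5.52 ± 0.10 SE, adjusted p = 1.07e-12). For cpg-2 the fed hermaphrodites stood at 14.57, 14.77 and 14.59 and the fed males at 9.50, 9.46 and 9.34, 37.0-fold apart. Both genes therefore showed separate, narrow groups. The vitelline layer gene cbd-1 stood at 13.59 ± 0.18 (SD, n = 3) in fed hermaphrodites and 8.53 ± 0.30 in fed males.

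The other vitelline layer genes, perm-2 and perm-4, had the smallest sex differences in fed worms. Fed hermaphrodites gave 14.31, 14.34 and 14.57 for perm-2 and fed males 11.29, 11.22 and 11.25, which is 8.89-fold (3.15 ± 0.13 SE, adjusted p = 6.00e-10). For perm-4 the values were 14.55, 14.69 and 14.94 in fed hermaphrodites and 12.14, 12.47 and 12.87 in fed males, which is 4.70-fold (2.23 ± 0.24 SE, adjusted p = 3.32e-06). The groups did not overlap for either gene, but fed males kept 11.2% of the hermaphrodite signal for perm-2 and 21.3% for perm-4, against 1.21% to 3.63% for the other 7 genes. The perm-4 share depends on the probe set: 173245_s_at gave a 7.06-fold difference and a share of 14.2%, and 186023_s_at gave 7.41-fold and 13.5%.

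**Figure D1:**
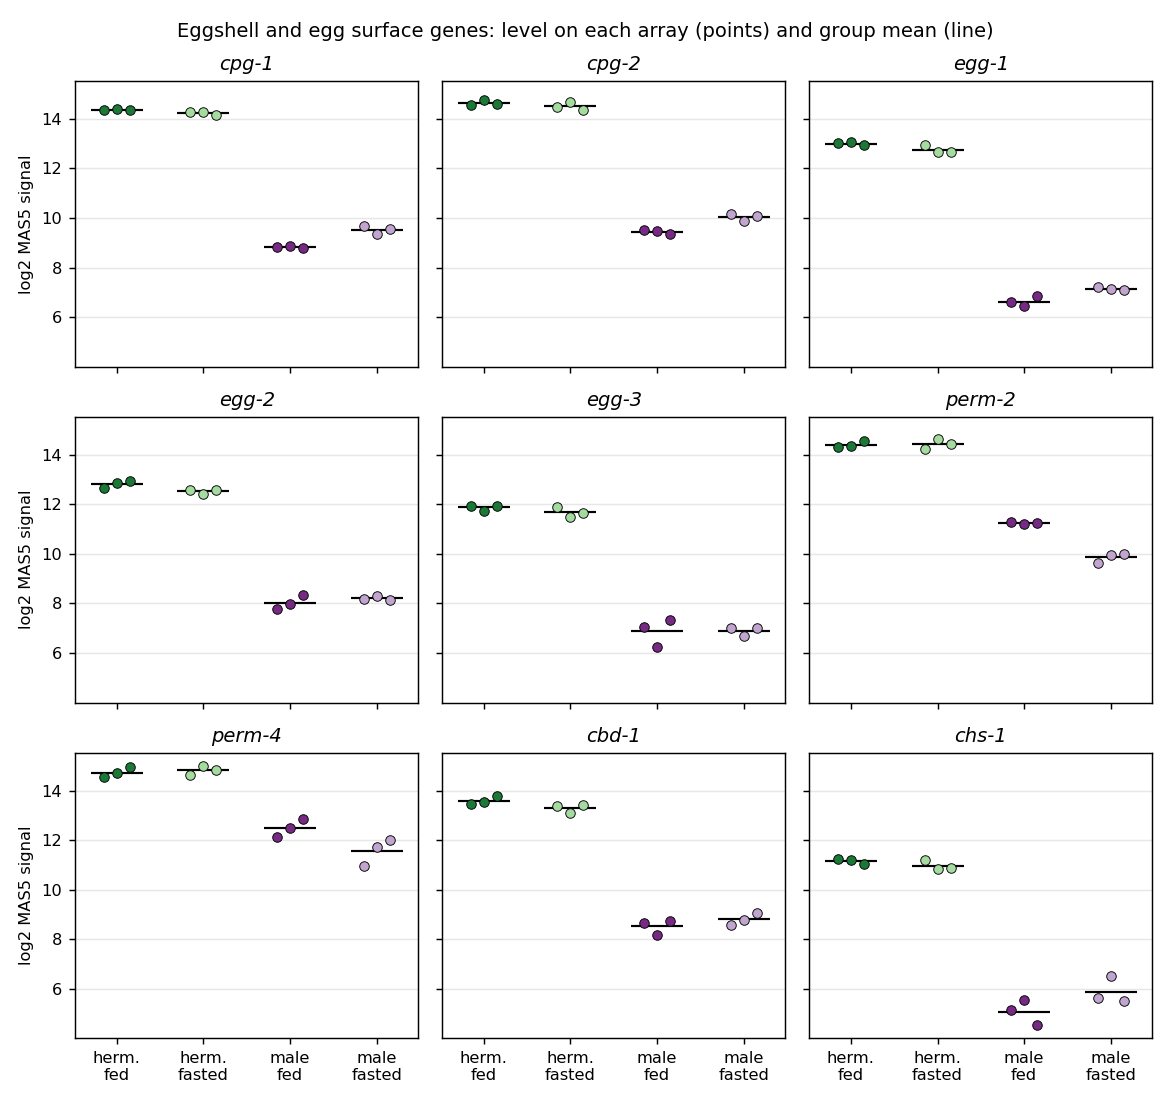
The level of each of the 9 genes (log2 MAS5 signal) on each of the 12 arrays, by group, with points for samples and a line for the group mean. Hermaphrodite arrays lie above male arrays in every panel, and males are lower when fasted than when fed for perm-2 and perm-4, and higher for cpg-1, cpg-2 and egg-1.

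Fasting left no member called in hermaphrodites. Of the 9 genes none passed the test by limma, and none had an unadjusted p under 0.05, where 11.4% of probe sets were called in either direction. Differences between fasted and fed hermaphrodites ran from -0.30 for egg-2 to 0.09 for perm-4, with a median of -0.20 against 0.09 over all probe sets tested. The smallest unadjusted p was 0.0627, for egg-2 (-0.30, 95% confidence interval -0.61 to 0.02, adjusted p = 0.23).

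For cpg-1 the fasted hermaphrodites stood at 14.27, 14.26 and 14.15, all under the lowest fed array, with a difference of -0.13 (interval -0.34 to 0.08). For perm-2 they stood at 14.24, 14.64 and 14.45, on both sides of the fed arrays (0.04, interval -0.24 to 0.32). Fasted and fed arrays did not overlap for 3 of the 9 genes, cpg-1, egg-2 and cbd-1, each lower when fasted, and 11.7% of all probe sets showed the same. Taken by replicate number, all 3 pairs were lower when fasted for 7 of the 9 genes, all but perm-2 and perm-4, where 20% of probe sets were lower in all 3 pairs. With the replicate block none of the 9 was called (adjusted p from 0.154 for cbd-1 to 0.854 for perm-2). The intervals were narrowest for cpg-1 and widest for chs-1 (-0.20, interval -0.82 to 0.41), and a p that misses the threshold does not show that levels were equal.

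In males, fasting raised cpg-1, cpg-2 and egg-1 and lowered perm-2 and perm-4. These are 3 of 9 genes higher and 2 of 9 lower by limma, where 19% of probe sets were called higher and 8.31% lower. The groups did not overlap for these 5 genes, against 32.2% of all probe sets without overlap and higher, and 12.4% without overlap and lower. The median change over all probe sets was 0.23 in males, and the split of calls depends on the scaling: after median centring 8.16% were called higher and 10.3% lower. The labels describe biological replicates of 3 independent experiments, so the spread behind these tests is between such samples.

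The proteoglycan gene cpg-1 stood at 8.85, 8.87 and 8.80 in fed males and at 9.66, 9.37 and 9.56 in fasted males, all fasted arrays being higher. The rise was 0.69 ± 0.10 (SE, adjusted p = 0.000291), which is 1.62-fold. For cpg-2 the fed males at 9.50, 9.46 and 9.34 compare with fasted males at 10.16, 9.88 and 10.07, a rise of 0.60 ± 0.11 (adjusted p = 0.00201). Both kept their call after median centring, where cpg-1 was at 0.50 (adjusted p = 0.00777) and cpg-2 at 0.41 (0.0208).

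The sperm-entry gene egg-1 stood at 6.60, 6.45 and 6.84 in fed males and 7.21, 7.15 and 7.10 in fasted males. Fasted arrays were all higher, by 0.52 ± 0.13 (SE, adjusted p = 0.0104). The call ended after quantile normalization (0.36, adjusted p = 0.09), after median centring (0.33, adjusted p = 0.168) and with only the arrays compared (adjusted p = 0.0958). The related egg-2 was at 0.17 (interval -0.15 to 0.48) and egg-3 at 0.02 (interval -0.49 to 0.53), and both signs turned after quantile normalization and median centring. For cbd-1 the difference was 0.27 (interval -0.11 to 0.64). The chitin synthase gene chs-1 stood at 5.14, 5.54 and 4.53 in fed males and 5.64, 6.51 and 5.50 in fasted males, with overlap (0.81 ± 0.28 SE, adjusted p = 0.0503). With the replicate block its adjusted p was 0.0204. With the 40th percentile of the signal added, the difference was 0.34 (adjusted p = 0.121).

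Of the 3 vitelline layer genes, perm-2 and perm-4 fell in males, while cbd-1 was at 0.27 and not called. For perm-2 fed males stood at 11.29, 11.22 and 11.25 and fasted males at 9.65, 9.96 and 9.99, all clearly lower. It fell by 1.39 on the log2 scale (SE 0.13, adjusted p = 1.40e-05), and 3.88% of probe sets had a change as low or lower. For perm-4 fed males stood at 12.14, 12.47 and 12.87 and fasted males at 10.98, 11.71 and 11.99, so that every fasted array was lower, with a wider spread (-0.93 ± 0.24 SE, adjusted p = 0.0126). Without male fed replicate 3 the perm-4 change was -0.75 (adjusted p = 0.0506).

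**Figure D2:**
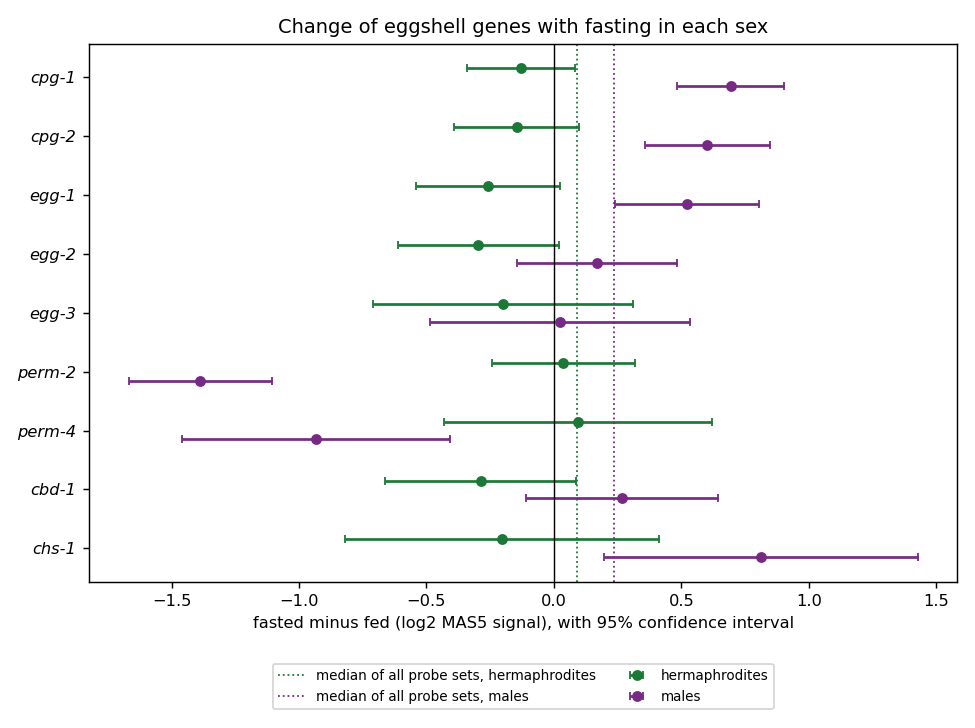
Fasted minus fed difference of each gene (log2 MAS5 signal) in hermaphrodites and in males, with points for the estimate and bars for the 95% confidence interval. Dotted lines give the median over all probe sets tested, 0.09 in hermaphrodites and 0.23 in males, and in males perm-2 and perm-4 lie far to the left while the other 7 genes lie at or above 0.02.

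The other probe sets of the same genes were read as a check of these directions. In males none of the 7 other probe sets had the opposite sign to the one used. The other perm-2 probe set, 186231_at, which has neither ending for shared or cross-hybridizing probes, gave 11.53, 11.19 and 10.96 in fed males and 9.46, 9.77 and 9.75 in fasted males. Its change was -1.57 ± 0.15 (SE, adjusted p = 1.56e-05). For perm-4, 173245_s_at gave -0.96 ± 0.15 (adjusted p = 0.000502) and 186023_s_at gave -1.09 ± 0.14 (adjusted p = 0.000208). A dim perm-4 probe set, 173340_at, had a level of 5.18 ± 0.68 (SD, n = 3) in fed males and a difference of -0.50 ± 0.49 (SE, adjusted p = 0.506). The other probe set of cpg-1, 171776_x_at, rose by 0.65 ± 0.19 (adjusted p = 0.0221), and that of cpg-2, 187525_s_at, by 0.80 ± 0.12 (adjusted p = 0.000539). The second cbd-1 probe set, 173142_at, varied widely among fed hermaphrodites (12.58, 12.82 and 10.69) and gave 0.03 ± 0.54 in males. In hermaphrodites it was also the only one of the 7 whose sign differed, at 0.07 against -0.29.

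**Figure D3:**
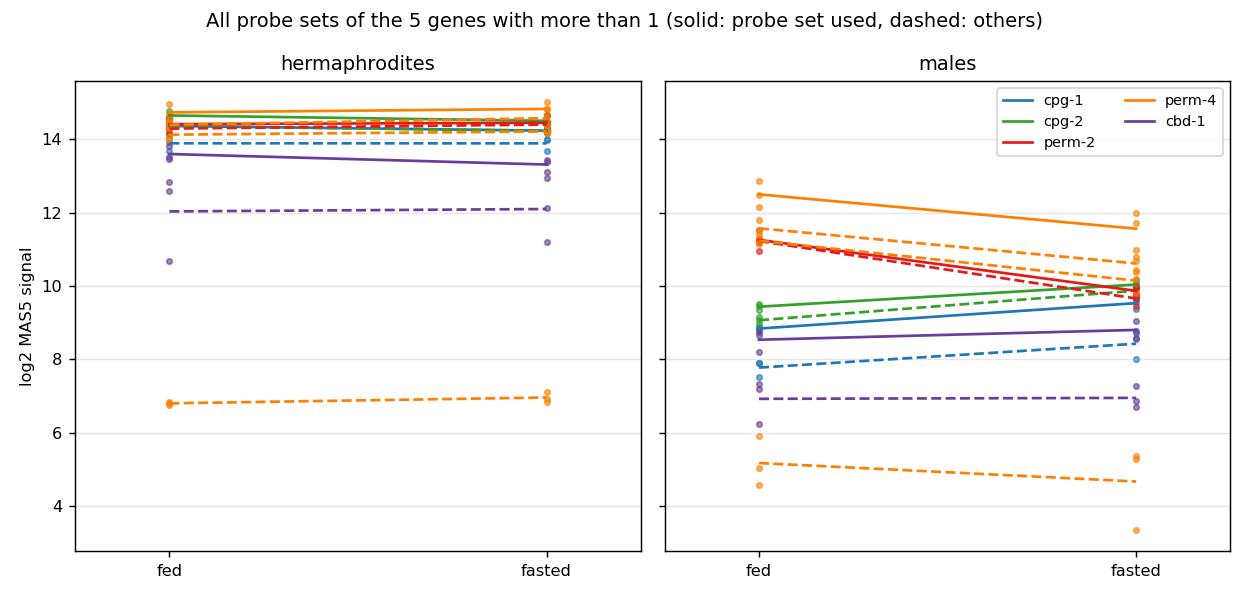
Levels (log2 MAS5 signal) of all probe sets of the 5 genes that have more than 1, fed and fasted, in hermaphrodites and in males, with points for arrays and lines joining group means (solid for the probe set used). In males every line of perm-2 and perm-4 slopes down and every line of cpg-1 and cpg-2 slopes up.

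The fasting response itself differed between the sexes for 4 of the 9 genes. The male change minus the hermaphrodite change was called higher for cpg-1, cpg-2 and egg-1 (3.82% of probe sets were) and lower for perm-2 (1.46% were). It was -1.43 ± 0.18 (SE) for perm-2 (adjusted p = 0.00204), 0.82 ± 0.14 for cpg-1 (adjusted p = 0.00759), 0.75 ± 0.16 for cpg-2 (adjusted p = 0.0215) and 0.78 ± 0.18 for egg-1 (adjusted p = 0.032). The perm-4 value of -1.03 ± 0.34 did not pass (adjusted p = 0.0982), but passed with the replicate block (0.0148), with array weights (0.0473) and as the mean of its probe sets (0.0237). Its probe sets 173245_s_at and 186023_s_at gave -1.14 (adjusted p = 0.0107) and -1.17 (adjusted p = 0.00931), and the dim 173340_at gave -0.66 (adjusted p = 0.637). The other cpg-1 probe set, 171776_x_at, gave 0.65 and did not pass (adjusted p = 0.169). The other probe sets of cpg-2 and perm-2 gave 0.93 (adjusted p = 0.0125) and -1.68 (adjusted p = 0.00173). The calls of perm-2 and cpg-1 were kept in all 24 alternatives. That of cpg-2 ended in 5 of the 24, namely quantile normalization (0.0794), hybridization control centring (0.087), no variance trend (0.0557), and without hermaphrodite fed replicate 2 (0.0581) or hermaphrodite fasted replicate 3 (0.0572). That of egg-1 ended under quantile normalization (0.52, adjusted p = 0.161), median centring (0.104), hybridization control centring (0.0742) and no variance trend (0.0582). It also ended without any 1 of 9 arrays, with adjusted p up to 0.0796, and held without hermaphrodite fasted replicate 1, male fed replicate 3 or male fasted replicate 3. The remaining genes, egg-2 (0.46), egg-3 (0.23), cbd-1 (0.56) and chs-1 (1.02), did not pass. The other cbd-1 probe set, 173142_at, had the opposite sign at -0.04 (adjusted p = 0.986).

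The male signal can also be read as a share of the hermaphrodite signal. In fasted worms it was 4.19% for perm-2 and 10.4% for perm-4 (6.44% and 5.98% by its probe sets 173245_s_at and 186023_s_at), and from 2.07% (egg-1) to 5.0% (egg-2) for the other 7 genes. By the probe sets used, the male share was larger in fasted than in fed worms for 7 of the 9 genes and smaller for perm-2 and perm-4. The other cbd-1 probe set, 173142_at, went the other way, with 2.91% in fed and 2.83% in fasted worms. The direction of the share restates the sign of the male change minus the hermaphrodite change and is no further test. The median of that difference over all probe sets tested was 0.11, and 0.03 after median centring. All 12 oocyte markers, such as rme-2, the yolk receptor, and oma-1, a regulator of oocyte maturation, were also called higher in hermaphrodites. Of all probe sets 35.9% were called higher in fed and 32.7% in fasted hermaphrodites. The male share of the markers, which restates the same sign, was larger in fasted worms for 12 of 12. In fed worms it ran from 0.783% (puf-5) to 10% (cey-3), with a median of 2.5%. In fasted worms it ran from 1.37% (oma-2) to 16.1% (glp-1), with a median of 3.8%. No value of these markers was at 0 on any array, and their summed log2 level ran from 11.72 to 11.96 in fed males, 12.17 to 12.51 in fasted males, 16.57 to 16.68 in fed hermaphrodites and 16.41 to 16.55 in fasted hermaphrodites. The part of oocyte material in the male values was not tested. In males, beside the fall of perm-2 and perm-4, 5 of these 12 markers rose with fasting and none fell. They were oma-1 (0.97 ± 0.14), pos-1 (0.68 ± 0.12), spn-4 (0.55 ± 0.14) and 2 others. Over all probe sets 19% were called higher and 8.31% lower in males, and the median change was 0.23. After median centring 2 of the 12 rose, where 8.16% of probe sets were called higher.

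**Figure D4:**
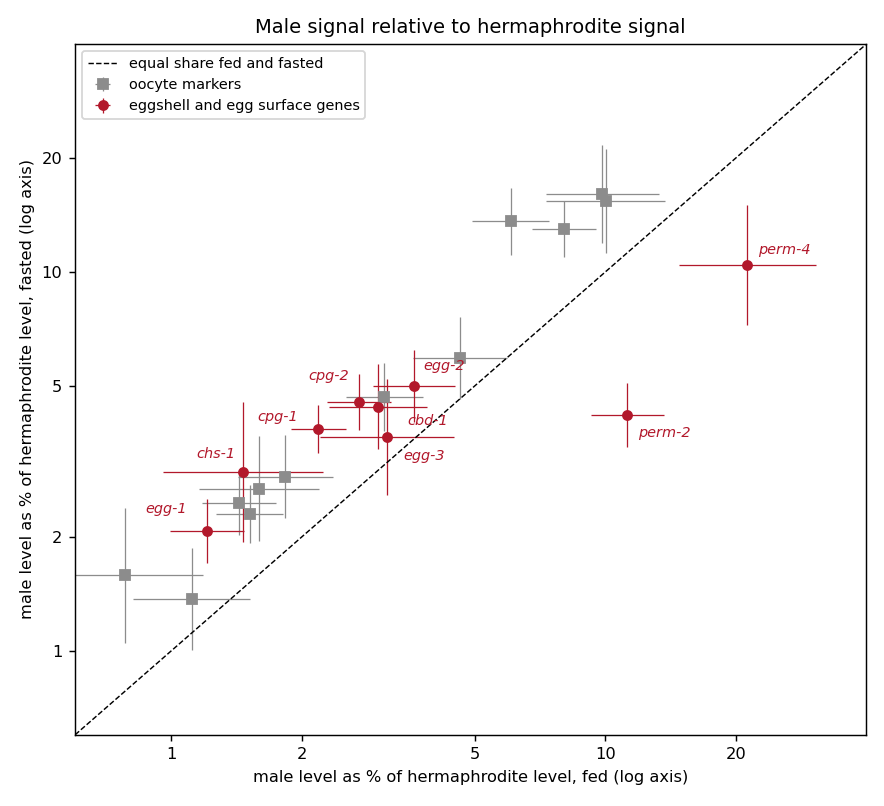
Male signal as a percent of the hermaphrodite signal in fed worms (horizontal, log axis) and in fasted worms (vertical, log axis), with 95% confidence intervals, for the 9 eggshell genes and 12 oocyte markers. All oocyte markers and 7 eggshell genes lie above the dashed line of equal shares, and perm-2 and perm-4 lie below it.

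Markers of other cell types were read beside these values. The 7 sperm markers measured, such as the sperm phosphatase genes gsp-3 and gsp-4, had a summed log2 level of 13.81 to 13.88 in fed males, 14.02 to 14.31 in fasted males and 8.61 to 9.41 over all hermaphrodite arrays. The 7 male somatic markers summed to 14.30 to 14.47 in fed and 13.85 to 14.07 in fasted males. Such sums follow the brightest genes of a list. With fasting in males none of the 7 sperm markers was called. Of the 6 male somatic markers tested, 1 was called, the bright swm-1, which was lower (mean 13.80 fed and 13.23 fasted). Over all probe sets 19% were called higher and 8.31% lower in males. The 7 embryonic markers summed to 8.74 to 8.89 in fed and 8.92 to 9.75 in fasted hermaphrodites, and only 3 of them passed the filter. None of these 3 was called with fasting in hermaphrodites, where 11.4% of all probe sets were called in either direction. The 6 intestine markers summed to 15.94 to 16.31 in fed and 15.37 to 15.93 in fasted males, and to 14.92 to 15.27 in fed and 12.93 to 13.04 in fasted hermaphrodites. With fasting 3 of these 6 fell in males, where 8.31% of all probe sets were called lower. They were the actin gene act-5 (-1.84 ± 0.15), the protease gene cpr-1 (-1.12 ± 0.24) and the intermediate filament gene ifb-2 (-0.88 ± 0.17). In hermaphrodites 5 of 6 fell, where 5.69% of all probe sets were called lower. The genes perm-2 and perm-4 fell in males and were not called in hermaphrodites. The 6 somatic gonad markers summed to 11.63 to 11.94 in fed and 11.89 to 12.59 in fasted males. In males 1 of them, fkh-6, rose (2.82 ± 0.57, adjusted p = 0.003), where 19% of all probe sets were called higher. No marker of these lists was at 0. The part of these tissues in the results was not tested.

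Genes that work with the 9 were read from lists of their pathway, beside the 35.9% of all probe sets called higher in fed hermaphrodites and, with fasting in males, the 19% called higher and 8.31% called lower. For chitin precursors, gfat-2, which makes glucosamine phosphate, and gna-2, the acetyltransferase of the next step, were 5.39 ± 0.12 and 4.37 ± 0.17 higher in fed hermaphrodites. Of the same list gfat-1 was called higher and gna-1 lower (-0.69), where 38.9% of all probe sets were called lower. Of the 4 genes of this list none was called with fasting in hermaphrodites, and gna-2 alone rose in males (0.52 ± 0.17, adjusted p = 0.0418), a call that ended after quantile normalization, after median centring, with either pseudocount, with no filter, with no variance trend, with only the arrays compared and without any 1 of 8 arrays. Of 6 genes of cortical granule release and egg activation, 5 were called higher in fed hermaphrodites, among them syx-4 (2.52 ± 0.18) and the caveolin gene cav-1. The remaining gene, rab-11.1, was called lower (-0.38). Levels of cav-1 were 12.83, 12.73 and 13.19 in fed hermaphrodites and 3.81, 4.70 and 5.55 in fed males, all 3 male values under the filter value of 6.01, so the size of its difference is uncertain. With fasting none of these 6 was called in hermaphrodites and 3 rose in males, the syntaxin gene syx-4 (1.45 ± 0.18), the separase gene sep-1 (0.87 ± 0.23) and rab-6.1 (0.41 ± 0.12). After quantile normalization or median centring 1 of the 6 rose, and 1 to 3 when single arrays were left out, with 1 without male fed replicate 2 or male fasted replicate 3.

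Of 12 tested genes for other proteoglycans and for chondroitin synthesis, all 12 were called higher in fed hermaphrodites (35.9% of all probe sets were). Their median was 2.30, with cpg-3 at 6.16 ± 0.14 and cpg-4 at 3.71 ± 0.15. In males 6 rose and 1 fell with fasting, where 19% of all probe sets were called higher and 8.31% lower. The list median was 0.43, against 0.23 over all probe sets. The risers included cpg-8 (2.03 ± 0.35), sqv-5 (0.97 ± 0.15), cpg-4 (0.68 ± 0.15) and cpg-3 (0.63 ± 0.14), the last close to the rises of cpg-1 and cpg-2. The gene cpg-9 fell in both sexes, by 1.75 on the log2 scale in hermaphrodites (adjusted p = 0.0105) and by 1.54 in males (adjusted p = 0.0108). Its levels were 5.03, 6.19 and 5.17 in fasted hermaphrodites. In males they were 6.57, 5.76 and 5.65 when fed and 4.74, 4.51 and 4.12 when fasted. Most of these values lay under the filter value of 6.01, so the size of both falls is uncertain. With the filter at the 60th percentile, 7.73, cpg-9 was not tested, since its highest value on any array was 7.57. That filter is therefore no check of its falls. Without hermaphrodite fed replicate 1 none was called lower in hermaphrodites. After median centring 2 genes of this list rose and 1 fell in males, and after quantile normalization 4 rose and 1 fell. Without male fed replicate 1, 4 rose and none fell, and without male fed replicate 2 or male fasted replicate 3, 4 rose and 1 fell. Of 8 genes of the lipid-rich permeability barrier, 6 were called higher in fed hermaphrodites, among them perm-1 (3.56 ± 0.23) and the acyltransferase gene dgtr-1 (3.53 ± 0.26). The fatty acid synthase gene fasn-1 fell in hermaphrodites (-0.92 ± 0.24, adjusted p = 0.0272), the only call of this list there. That list's count was 0 without a variance trend and without replicate 1 or 3 of either hermaphrodite group. In males the acetyl-CoA carboxylase gene pod-2 (1.14 ± 0.18) and perm-3 (0.50 ± 0.12) rose, and none of the 8 was called lower. After median centring 1 was called higher and 1 lower, after quantile normalization 2 and 1, and with array weights, or without male fed or fasted replicate 3, 3 and 1.

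Genes with the most similar pattern were found among 7327 tested genes with a locus name, by the root mean square difference between their centred log2 profile and the mean centred profile of the 9 genes over the 12 arrays. The nearest were the B-type cyclin genes cyb-2.1 (0.18) and cyb-2.2 (0.20), the maternal RNA-binding gene spn-4 (0.21), the pumilio family gene puf-7 (0.21), lrr-1 (0.23), the glycogenin gene gyg-2 (0.24), kca-1 (0.24) and fbxa-215 (0.25). Of the 9 genes themselves, egg-2 (0.17) and cbd-1 (0.19) lay nearest to the mean profile of the other 8, and perm-4 (1.21) and perm-2 (0.77) farthest. The closest pair was cpg-1 and cpg-2 at 0.15. Over the 6 hermaphrodite arrays alone, among 655 genes with a fed sex difference at least that of perm-4, the nearest were mec-15 (0.04), fbxa-215 (0.04), pps-1, sand-1 and oma-1 (each 0.05), nth-1, pes-23 and ima-2.

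A search chosen after the values were seen took the mean profile of perm-2 and perm-4 as its target. The nearest gene, pph-4.2, lay at 0.44, farther than any of the 8 above, and its male fasting difference of -0.17 (adjusted p = 0.437) was smaller than those of perm-2 and perm-4. Among the 8 nearest, the male differences ran from -1.25 for the insulin-like peptide gene ins-34 (adjusted p = 0.0759) to 0.24 for dsh-2, and none was called.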

How the data were processed

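The authors deposited 1 table of log2 signals for 22625 probe sets on 12 arrays, made with MAS5, per the submitters' processing notes; its version is not given in the sources used here. The 2% trimmed mean of the linear signal was 500 on every array to the nearest whole number, so the arrays had been scaled alike, and no further normalization was applied. Per the labels' protocols, 250 ng of total RNA was labelled with 16 hours of in vitro transcription. Arrays hold no read depth, and their number limits the precision. Levels correlated at r = 0.938 to 0.954 across probe sets between arrays of a group.

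The 77 controls were dropped. Testing required a level over 6.01, the 40th percentile of the whole table, on 3 or more arrays, and 15913 probe sets met this. Genes were named by the platform's annotation and updated through gene IDs to the gene table of assembly WBcel235: 20766 probe sets had 1 gene, 887 several and 895 none. The 4 group means were fitted with limma 3.58.1 in R 4.3.3 (lmFit, eBayes with a trend, two-sided). The Benjamini-Hochberg adjustment ran over all probe sets tested in each comparison, and an adjusted p under 0.05 was called. Sex differences are hermaphrodite minus male, fasting differences fasted minus fed, and errors are SD or SE with n = 3 arrays per group. The fit was tested on simulated data. Tables and figures were made in Python 3.11.15 (numpy 2.4.6, pandas 2.3.3, matplotlib 3.10.9).

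The members and the pathway and marker lists were chosen with earlier results of these data known. The text names all 9 members, up to 4 genes of a list per comparison (called ones first, then by size), and the 8 genes nearest in profile. Whether equal replicate numbers pair samples was checked from the correlation of each sample's departure from its group mean. The r was 0.119 to 0.274 between fed and fasted arrays in either sex, and 0.0525 to 0.204 between the sexes. No cut-off for r was tested, so these values do not settle whether the numbers pair the samples. The main fit leaves such pairing out, and the replicate block takes it in. Alternatives were 2 pseudocounts, 2 filters, 3 scalings, no variance trend, array weights, only the arrays compared, a replicate block, the mean over a member's probe sets, and each array left out in turn.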

Additional observations from a re-analysis of the deposited data

Results flagged for a closer look

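The fasting response of 4 genes differed between the sexes by the test of the difference itself. The change in males minus that in hermaphrodites was 0.82 for cpg-1, 0.75 for cpg-2, 0.78 for egg-1 and -1.43 for perm-2 on the log2 scale. Groups of 3 arrays were too small for a test of single outlying samples.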

How the results depend on the processing

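Of 1080 values of a member under an alternative, 1038 kept their direction and their side of the threshold, 22 lost and 8 gained a call and 12 turned in sign. Every sex difference of the 9 genes kept its call, and no member was called with fasting in hermaphrodites under any alternative run. The number of members whose fasting response differed between the sexes was 4, and it was 2 after quantile normalization, 2 after hybridization control centring, 2 without a variance trend, and 2 to 4 when single arrays were left out. With the replicate block it was 5, with perm-4 added (adjusted p = 0.0148), and the block also added chs-1 in males (adjusted p = 0.0204). It changed no other call of a member. The cause of these shifts was not tested. All values that turned in sign were uncalled. In hermaphrodites perm-2 was at -0.064 and perm-4 at -0.0071 after median centring, and perm-2 ran from -0.0625 to 0.14 when single arrays were left out. In males egg-2 was at -0.0485 and egg-3 at -0.19 after quantile normalization, and -0.0208 and -0.16 after median centring. The male difference of egg-3 ran from -0.30 to 0.25 when single arrays were left out, and its difference between the sexes from -0.095 to 0.46. Over all probe sets the sex-dependent calls numbered 840, and 463 after median centring, 354 after hybridization control centring, 1522 with array weights, 1641 with the replicate block and 428 to 899 when single arrays were left out. After median centring the median sex difference over all probe sets moved from -0.13 to 0.41 in fed and from -0.12 to 0.50 in fasted worms. Rises made up 69.6% of the male calls, against 44.2% after median centring, 56.6% after quantile normalization and 73.3% after hybridization control centring. Higher calls made up 48% of the sex differences in fed worms and 64.1% after median centring. Male levels of chs-1 near the lower end of the scale limit its fold.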
